A study of Mus musculus with 18 samples.

Results

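The 10 core genes of the mammalian circadian clock were followed in mouse brain RNA sequencing libraries. They were chosen by name from the textbook clock: Arntl, Clock and Npas2, which encode activators, Per1, Per2, Per3, Cry1 and Cry2, which encode repressors, and Nr1d1 and Dbp, which encode a nuclear receptor and an output transcription factor. All 10 were found among the 38561 genes counted, and all 10 passed the filter on low counts that 17545 genes passed, each of the 10 with 325 to 6501 reads in every library. The libraries came from the frontal cortex, striatum and hippocampus of 3 WT and 3 Pcm1-/- adult mice, littermates of both genotypes whose strain the labels give as C57 Bl6J. The mutants carried a gene-trap insertion from a single embryonic stem cell clone, in every cell and from conception, on a background crossed to C57BL/6J for at least 3 generations. Pcm1 encodes a scaffold protein of the centriolar satellites, the granules around the base of the cilium. A tag carried by the deposited tables ties the 3 regions of each mouse together, and the mice are numbered here 1 to 3 within genotype by their frontal cortex replicate number. The first part of that tag is shared by 4 of the mice, mice 2 and 3 of both genotypes, while WT mouse 1 and Pcm1-/- mouse 1 each carry another, and the sources used here do not say whether it marks a litter or a cage. Dissection and freezing took place on the same day, and the hour at which each brain was taken is not given in the sources used here.

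In the molecular clock, a dimer of the Arntl protein (also called BMAL1) with CLOCK, or with its relative NPAS2 in the forebrain, switches on the Per and Cry genes through E-box sequences. The PER and CRY proteins return to the nucleus and inhibit that dimer, so that their own transcripts fall again, and the loop takes about a day. The same dimer drives Nr1d1, whose product REV-ERB alpha represses Arntl, and Dbp, whose product activates genes with D-boxes, Per genes among them. Per1 and Per2 are also induced by light, neuronal activity and glucocorticoids through other elements of their promoters. The pacemaker of the body lies in the suprachiasmatic nucleus of the hypothalamus, and the 3 regions studied here hold clocks that follow it. Transcripts of different clock genes peak at different hours, so the relative levels in a sample depend on when it was taken.

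The letters of these elements can be read directly in the promoters of several members. RefSeq promoter windows of GRCm38.p6, from 250 bases before to 50 bases after a transcript start, were at hand for 9 of the 10 members, all but Per2. On either strand, the E-box CACGTG occurred in the windows of 2 members, Per1 and Cry1, and in windows of 8.09% of all 27025 genes. Its variant CACGTT occurred in those of Cry1, Cry2 and Nr1d1 and of 5.44% of all genes. The D-box TTATGTAA was found in the window of Per3 alone among the members, at 2 positions, and in windows of 1.11% of all genes. No member's window held the cAMP response element TGACGTCA, which windows of 2.03% of all genes hold, and the letters AGGTCA, the core of the element bound by REV-ERB and ROR receptors, stood in windows of Arntl, Clock and Per1 and of 18.1% of all genes. A gene with several starts counts once if any of its windows holds the letters, and Arntl and Per1 have 2 windows and Clock 3. The 250 bases before the start are shown for the members with the complete E-box or D-box, since these 3 members also differed between mice of the same genotype, as described further on. Capitals mark the E-box in Per1, the variant followed by the E-box in Cry1 and both D-boxes in Per3, and each sequence reads 5′ to 3′ along the gene.

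Per1, chr11:69098699-69098948, plus strand: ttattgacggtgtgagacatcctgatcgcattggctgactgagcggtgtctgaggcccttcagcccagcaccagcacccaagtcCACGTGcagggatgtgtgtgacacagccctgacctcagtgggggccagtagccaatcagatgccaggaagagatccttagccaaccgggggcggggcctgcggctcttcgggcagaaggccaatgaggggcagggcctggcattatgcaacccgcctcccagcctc

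Cry1, chr10:85185055-85185304, minus strand: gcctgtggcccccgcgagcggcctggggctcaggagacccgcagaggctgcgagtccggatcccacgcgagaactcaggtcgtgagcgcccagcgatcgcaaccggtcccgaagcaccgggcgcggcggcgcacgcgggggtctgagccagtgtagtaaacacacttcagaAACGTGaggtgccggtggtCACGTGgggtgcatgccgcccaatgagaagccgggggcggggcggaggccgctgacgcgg

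Per3, chr4:151044666-151044915, minus strand: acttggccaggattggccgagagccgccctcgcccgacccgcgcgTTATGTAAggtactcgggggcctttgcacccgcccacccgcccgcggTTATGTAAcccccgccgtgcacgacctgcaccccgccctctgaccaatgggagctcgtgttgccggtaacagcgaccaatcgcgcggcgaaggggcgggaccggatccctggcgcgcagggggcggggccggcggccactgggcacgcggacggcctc

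The Per1 E-box begins 166 bases before the start of that window, one of the 2 RefSeq starts at hand, which lies inside the Per1 gene span given further on. In Cry1 the variant, which reads AACGTG on the strand shown, begins 79 and the E-box 60 bases before the start of Cry1, and the Per3 D-boxes begin 205 and 158 bases before the start of Per3. Shorter stretches of 30 bases are enough to show the remaining matches in Cry2 and Nr1d1, where capitals mark the E-box variant, and in Arntl, where they mark AGGTCA just downstream of the start. A match is a string of letters and was not tested as a binding site.

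Cry2, chr2:92434218-92434247, minus strand: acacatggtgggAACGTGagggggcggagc

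Nr1d1, chr11:98775388-98775417, minus strand: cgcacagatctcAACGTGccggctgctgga

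Arntl, chr7:113207530-113207559, plus strand: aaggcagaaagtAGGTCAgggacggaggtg

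The libraries held 24950537 to 33405081 reads on genes. Pcm1, the trapped gene, measured 120 to 172 CPM (counts scaled to the size of the library) in WT and 11.8 to 17.6 CPM in Pcm1-/- libraries, so every library matched its genotype label. Summed over each list, striatal, cortical and hippocampal markers were highest in the region of their name within each genotype. Of 8 hypothalamic markers, Nms, Six6, Oxt and Hcrt had at most 9 reads in any library, Prok2 at most 12 and Avp at most 91, while Vip and Rorb, which the cortex also expresses, reached 1727 and 2945. Mouse 2 of each genotype stood out by Y-chromosome genes, at a summed 117 to 140 CPM against 2.43 to 3.89 CPM in the other mice, so sex and the other properties of mouse 2 cannot be told apart. Markers of the choroid plexus, the tissue that makes cerebrospinal fluid, stood apart in the WT striatum library of mouse 2, with a summed 5988 CPM against 30.5 to 165 CPM in the other striatum libraries, and in the Pcm1-/- hippocampus library of mouse 2, with 220.4 CPM against 2145 to 6277 CPM. In bulk tissue, fewer cells of a type and less RNA per cell cannot be told apart.

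Set on one scale per kilobase of exon, the members spanned a wide range of levels. Nr1d1 had the highest level in the frontal cortex, at 53.7 ± 7.35 CPM per kilobase (SD over 6 libraries), above the range of every other member. Dbp (29.4), Cry2 (29.1) and Per1 (27.9) followed with ranges that overlapped, and Npas2 stood alone below them at 12.5. The lowest levels there were those of Per2 (8.31), Clock (7.23), Cry1 (6.80), Per3 (4.51) and Arntl (3.89), each of which overlapped the next. In the striatum Dbp led with 52.5 ± 7.57 CPM per kilobase, overlapping Nr1d1 at 47.7, and Arntl was again last at 3.79. Nr1d1 led in the hippocampus at 36.5 ± 3.90 CPM per kilobase, above Cry2 (21.7), Dbp (20.3) and Per1 (17.98), which overlapped, and Per3 was last at 3.56. Thus Nr1d1 or Dbp led in each region, and the activator Arntl was among the lowest in all 3. The length used is that of all annotated exons of a gene merged, from 2993 bases for Dbp and 3077 for Nr1d1 to 13727 for Clock. This order therefore depends on the annotation, and Dbp and Nr1d1 also share exon bases with other genes, as given further on.

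**Figure D1:**
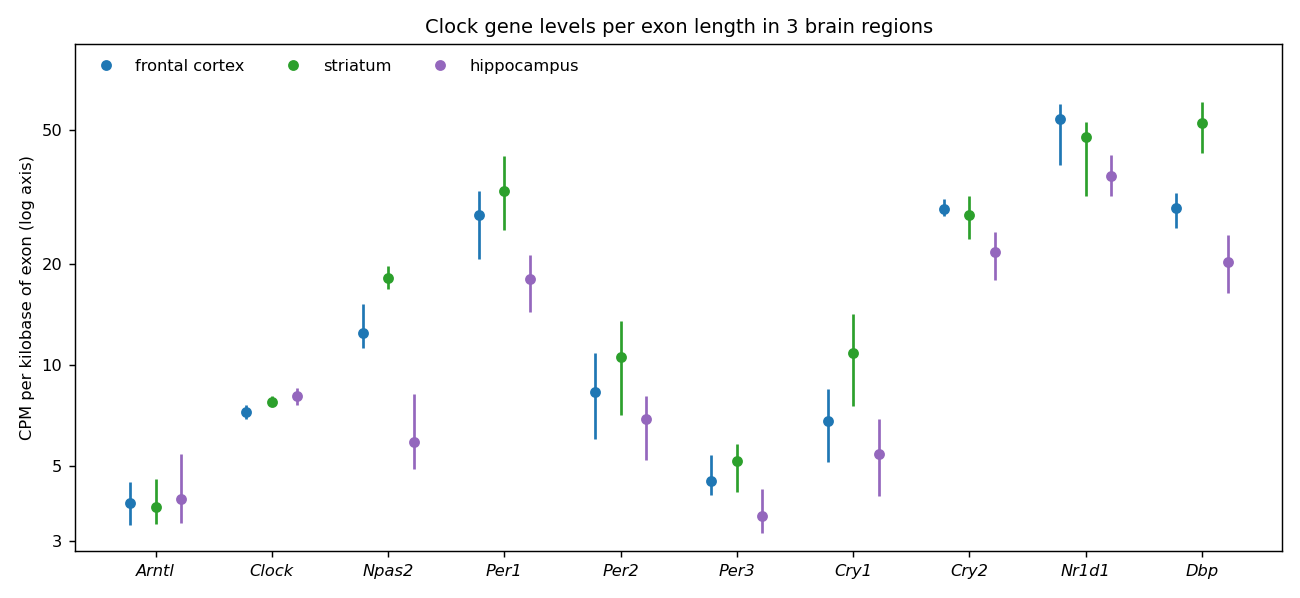
Level of each clock gene in CPM per kilobase of exon, on a log axis, with the mean (point) and the lowest to highest of 6 libraries (line) in each region. Npas2, Dbp and Cry1 show the widest gaps between regions, and Arntl the narrowest, with means from 3.79 to 4.00.

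Regions were compared within mice, over all 18 libraries, with a term for each animal. The striatum had the highest mean level of 6 members, and the hippocampus the lowest mean of 8. Between the striatum and the frontal cortex, 8 of the 10 members passed an adjusted p of 0.05, where 66% of all genes tested did. Of the 8, 7 were higher in the striatum, as were 5883 of the 11579 genes that passed (33.5% of all genes tested). For the hippocampus against the frontal cortex the count was 9 of 10 beside 56.7% of all genes. Of the 9, 8 were lower in the hippocampus, as were 4947 of the 9946 genes that passed (28.2% of all genes). Striatum against hippocampus gave 8 of 10 beside 57.1% of all genes. Each of the 8 was higher in the striatum, as were 4973 of the 10010 genes that passed (28.3% of all genes). Most genes differ between these regions, so the counts are to be read against those shares. The median difference of the members was a log2 fold change of 0.56 for striatum over hippocampus, −0.39 for hippocampus over frontal cortex and 0.21 for striatum over frontal cortex. The medians of all genes were 0.0011, −0.0010 and 0.020.

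Among the activators, Npas2 set the regions furthest apart. Npas2 (ENSMUSG00000026077, chromosome 1, 39193731 to 39363236 on the plus strand of GRCm38) measured 80.6 to 94.1 CPM in the 6 striatum libraries, 54.0 to 72.5 CPM in the frontal cortex and 23.5 to 39.4 CPM in the hippocampus, and no library of one region reached the range of another. Its striatal level was 3.09 times the hippocampal one (log2 fold change 1.63 ± 0.10, SE; adjusted p = 1.5e-09) and 1.46 times the cortical one (0.54 ± 0.09; adjusted p = 1.25e-04). Clock (ENSMUSG00000029238, chromosome 5, 76209868 to 76304792, minus strand) was nearly flat, at 94.6 to 117 CPM over all libraries, with a log2 fold change of 0.16 ± 0.04 for hippocampus over frontal cortex (adjusted p = 0.0026). Arntl (ENSMUSG00000055116, chromosome 7, 113207465 to 113314126, plus strand) passed the test in no comparison of regions, with 25.3 to 34.4 CPM in the striatum, 25.2 to 33.9 CPM in the frontal cortex and 25.6 to 40.8 CPM in the hippocampus. Between the striatum and the hippocampus Arntl, whose protein is the partner of both others, differed by −0.07 ± 0.08 on the log2 scale, beside 1.63 for Npas2.

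Of the repressors, Cry1 and Per1 differed most. Cry1 (ENSMUSG00000020038, chromosome 10, 85131700 to 85185064, minus strand) had 25.3 to 47.2 CPM in the striatum and 13.6 to 23.1 CPM in the hippocampus, ranges that did not overlap, for a fold change of 1.98 (log2 0.99 ± 0.06; adjusted p = 2.1e-09). Per1 (ENSMUSG00000020893, chromosome 11, 69095217 to 69109960, plus strand) had 142 to 235 CPM in the striatum and 80.8 to 119 CPM in the hippocampus, a fold change of 1.82 (log2 0.86 ± 0.06; adjusted p = 1.4e-08). In the frontal cortex Per1 measured 117 to 186 CPM, which overlapped both ranges. The other repressors moved the same way by less. Per2 (ENSMUSG00000055866, chromosome 1, 91415982 to 91459324, minus strand) was higher in the striatum than in the hippocampus by 0.59 on the log2 scale, Per3 (ENSMUSG00000028957, chromosome 4, 151003652 to 151044665, minus strand) by 0.54 and Cry2 (ENSMUSG00000068742, chromosome 2, 92403646 to 92434043, minus strand) by 0.36 (adjusted p = 3.6e-05, 1.6e-06 and 2.8e-04). Cry2 was the only repressor that did not pass between the striatum and the frontal cortex (log2 −0.07 ± 0.07; adjusted p = 0.37).

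Dbp (ENSMUSG00000059824, chromosome 7, 45705088 to 45710203, plus strand), a PAR bZIP factor with a steep daily rhythm in many tissues, showed an order of regions with no overlap, as Npas2 did. Its 6 striatum libraries had 128 to 181 CPM, the frontal cortex 76.5 to 97.2 CPM and the hippocampus 49.1 to 72.8 CPM. Striatal Dbp was 1.78 times the cortical level (log2 0.83 ± 0.05; adjusted p = 6.0e-10) and 2.59 times the hippocampal level (1.37 ± 0.05; adjusted p = 3.4e-12). Nr1d1 (ENSMUSG00000020889, chromosome 11, 98767932 to 98775333, minus strand) was instead highest in the frontal cortex, 121 to 184 CPM, with 97.9 to 163 CPM in the striatum and 97.6 to 129.9 CPM in the hippocampus, where it fell by 0.55 ± 0.06 on the log2 scale (adjusted p = 2.9e-06). Exons of Nr1d1 share 263 bases with Thra on the other strand, and those of Dbp share 539 bases with Sphk2, and the strand setting of the read counting is not given, so reads in those stretches cannot be told apart by gene here.

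Some of the smaller of these differences depended on single mice, on the model or on the filter. With only the WT mice 4 members passed between the striatum and the frontal cortex (48.1% of all genes) and with only the Pcm1-/- mice 6 (56.4%), the calls lost being those of Clock, Per1, Per3 and Nr1d1 in the first case and of Clock and Nr1d1 in the second. With the WT mice only, the log2 difference was 0.12 for Per1 and 0.059 for Per3, against 0.23 and 0.195 over all mice. Clock (0.10 on the log2 scale) was lost in this comparison without WT mouse 1 (0.09) or 2 (0.08) or Pcm1-/- mouse 1 (0.09), and Nr1d1 (−0.18) without Pcm1-/- mouse 2 (−0.16). With all mice kept, Clock was lost with no filter on low counts (0.11; adjusted p = 0.056) and Per1 with no animal term (0.23; 0.068). Per2 was lost with no animal term (0.35; adjusted p = 0.094) or the replicate block in its place (0.36; 0.055), and so was Nr1d1 (−0.17 in each; 0.15 and 0.19). The hippocampal fall of Per2 against the frontal cortex (log2 −0.24 ± 0.09; adjusted p = 0.028) was lost without WT mouse 1 (−0.19), 2 (−0.25) or 3 (−0.16) or Pcm1-/- mouse 3 (−0.24). It was −0.47 with the WT mice only and −0.030 with the Pcm1-/- mice only (adjusted p = 0.0050 and 0.82). With the WT mice only, Clock (0.14; adjusted p = 0.15) and Cry1 (−0.25; adjusted p = 0.089) were lost for the hippocampus against the frontal cortex as well. Cry1 was lost there also with the replicate block in place of the animal (adjusted p = 0.082) or no animal term (0.12). So was Per2, at −0.26 (adjusted p = 0.18) and −0.27 (0.22).

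The genotypes were compared next, to ask whether loss of Pcm1 moved the clock genes. None of the 10 members passed an adjusted p of 0.05 with edgeR's quasi-likelihood test for the frontal cortex, where 1.74% of all genes did, the striatum (0.0285%), the hippocampus (0.0171%), or the counts summed over the regions of each mouse (1.39%). At an unadjusted p under 0.05 the counts were 1, 2, 2 and 2 members, beside 15.3%, 13.5%, 9.89% and 17.2% of all genes. DESeq2 called 0, 1, 0 and 0, beside 3.68%, 2.27%, 1.09% and 6.43%. The members' median log2 fold changes in frontal cortex, striatum and hippocampus were −0.02, 0.05 and 0.14.

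Per1 was the member with the largest difference. In the striatum it measured 145, 142 and 181 CPM in WT mice 1, 2 and 3 and 229, 182 and 235 CPM in Pcm1-/- mice 1, 2 and 3. In the hippocampus the values were 83.9, 80.8 and 103 CPM in WT and 119, 111 and 109 CPM in mutant mice. Every mutant library was above every WT library in both regions, although in the striatum the highest WT and lowest mutant values nearly met. The fold was 1.38 in the striatum (log2 0.47 ± 0.12; unadjusted p = 0.0055, adjusted p = 0.20) and 1.25 in the hippocampus (0.32 ± 0.11; 0.018 and 0.43). In the frontal cortex the WT mice themselves spread from 117 to 186 CPM, around the mutant values of 168, 155 and 183 CPM, and the difference was 0.20 ± 0.15 (adjusted p = 0.57). DESeq2 called striatal Per1 (log2 0.47; adjusted p = 0.021). Over the summed counts Per1 was 131 ± 22.8 CPM in WT and 164 ± 11.2 CPM in Pcm1-/- mice (SD, n = 3 each; log2 0.33 ± 0.11, adjusted p = 0.20). WT mouse 3 was the only WT mouse with Per1 in the mutant range or above in the frontal cortex and in the sums. Without it, Per1 passed in the frontal cortex (log2 0.42; adjusted p = 0.028), together with Npas2 (−0.30; adjusted p = 0.031) and 4.7% of all genes. Per1 then also passed in the summed counts (0.47; adjusted p = 0.034), as 2.27% of all genes did. Immediate early genes, which neuronal activity induces as it does Per1, had higher means in mutants for 9 of 11 genes in frontal cortex, 10 in striatum and 11 in hippocampus. Of all 17545 genes tested, 8440, 8616 and 8739 were higher in mutants. The median log2 fold changes of the 11 were 0.17, 0.39 and 0.51. An unadjusted p of 0.05 was passed by 4, 6 and 8 of the 11, each higher in mutants. Of all genes, 15.3%, 13.5% and 9.89% passed in either direction, of which 1375, 1147 and 849 genes were higher in mutants. None of the 11 passed after adjustment with edgeR in any region, while DESeq2 called 1, 4 and 3 of them beside 3.68%, 2.27% and 1.09% of all genes, Egr4 and Nr4a1 in both the striatum and the hippocampus. In the summed counts edgeR called 0 and DESeq2 3 of the 11, beside 1.39% and 6.43% of all genes. The part of these genes in the Per1 difference was not tested. All striatal WT libraries shared sequencing lane 5, which held no striatal mutant library, and the lane can therefore not be separated from the genotype for that region. Marker sums of several cell types also separated the genotypes, and their part in the clock gene differences was not tested. In the striatum, striatal neuron markers summed to 6244 to 6675 CPM in mutant and 5162 to 6128 CPM in WT libraries, oligodendrocyte markers to 4815 to 7700 against 7850 to 7960 CPM, and astrocyte markers to 1182 to 1271 against 1333 to 1882 CPM. In the hippocampus, those of endothelium summed to 105 to 116 against 124 to 179 CPM, and those of blood to 33.3 to 69.8 against 125 to 216 CPM. In the frontal cortex, cortical neuron markers summed to 3047 to 3189 CPM in mutant and 2708 to 2742 CPM in WT libraries, and blood, endothelial, microglial and oligodendrocyte sums were each lower in every mutant library than in every WT library.

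Cry2, a repressor whose transcript is among the less rhythmic ones, had higher means in mutants in the same regions, by less. Its striatal values were 158, 149 and 177 CPM in WT mice 1 to 3 and 201, 182 and 191 CPM in the mutants, and the hippocampal values were 113, 134 and 132 CPM and 158, 147 and 140.4 CPM. Again no mutant library fell to the WT range in either region. The log2 fold changes were 0.24 ± 0.08 (unadjusted p = 0.013, adjusted p = 0.25) and 0.21 ± 0.09 (0.049 and 0.50), and in the frontal cortex −0.04 ± 0.06. Non-overlapping genotypes were found for 19% of all genes in the striatum and 17.1% in the hippocampus, against 2 of the 10 members in each.

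Per3 was the single member whose genotypes did not overlap in the frontal cortex, where 21.3% of all genes had this pattern. It measured 51.7, 43.2 and 44.5 CPM in WT mice 1 to 3 and 39.4, 41.9 and 39.6 CPM in the mutants (log2 −0.21 ± 0.08; unadjusted p = 0.022, adjusted p = 0.23). The lowest WT value was close to the highest mutant one, and the difference was 0.07 ± 0.11 in the striatum. The remaining members had unadjusted p values above 0.05 in every region. Among the activators, Npas2 was 63.7 ± 9.29 CPM in WT and 55.9 ± 1.23 CPM in mutant frontal cortex (log2 −0.20 ± 0.10; adjusted p = 0.37), and Arntl was 31.1 ± 4.16 and 27.4 ± 3.21 CPM there (−0.19 ± 0.12; adjusted p = 0.48; SD, n = 3 each). Dbp and Nr1d1 had higher means in mutants in each region, with log2 fold changes of 0.13 to 0.21 for Dbp and 0.14 to 0.20 for Nr1d1, and adjusted p values from 0.47 to 0.80. Per2, at 52.7 ± 15.2 CPM in WT and 44.7 ± 10.5 CPM in mutant frontal cortex (SD, n = 3 each), and Cry1, at 22.6 ± 4.81 and 22.9 ± 4.75 CPM, had a WT SD that exceeded the difference of the means in each region. Clock differed by at most 0.05 on the log2 scale. For Per2 the SE of 0.15 to 0.25 shows how little a comparison of 3 with 3 mice can resolve for this gene.

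**Figure D2:**
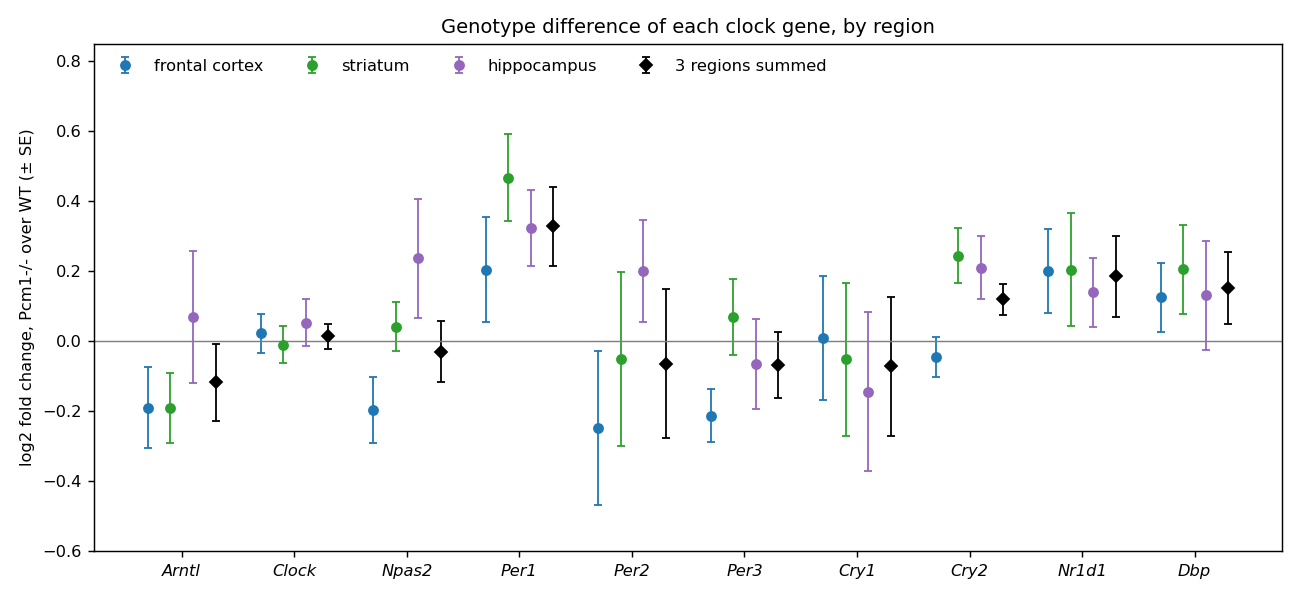
Log2 fold change of Pcm1-/- over WT, with its SE, for each clock gene in the 3 regions and in the counts summed over regions. Striatal and hippocampal Per1 (0.47 and 0.32) and Cry2 (0.24 and 0.21) lie furthest above 0 relative to their SE among the values by region, and none of the differences passes an adjusted p of 0.05.

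Whether the effect of genotype varied from region to region was tested with an interaction term inside each mouse. No member passed with edgeR, and no gene at all did (0%). Unadjusted p values under the threshold were found for Per2 (0.023), Cry2 (0.040) and Per3 (0.045), beside 7.89% of all genes, and DESeq2 called 0 members and 0.775% of all genes.

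**Figure D3:**
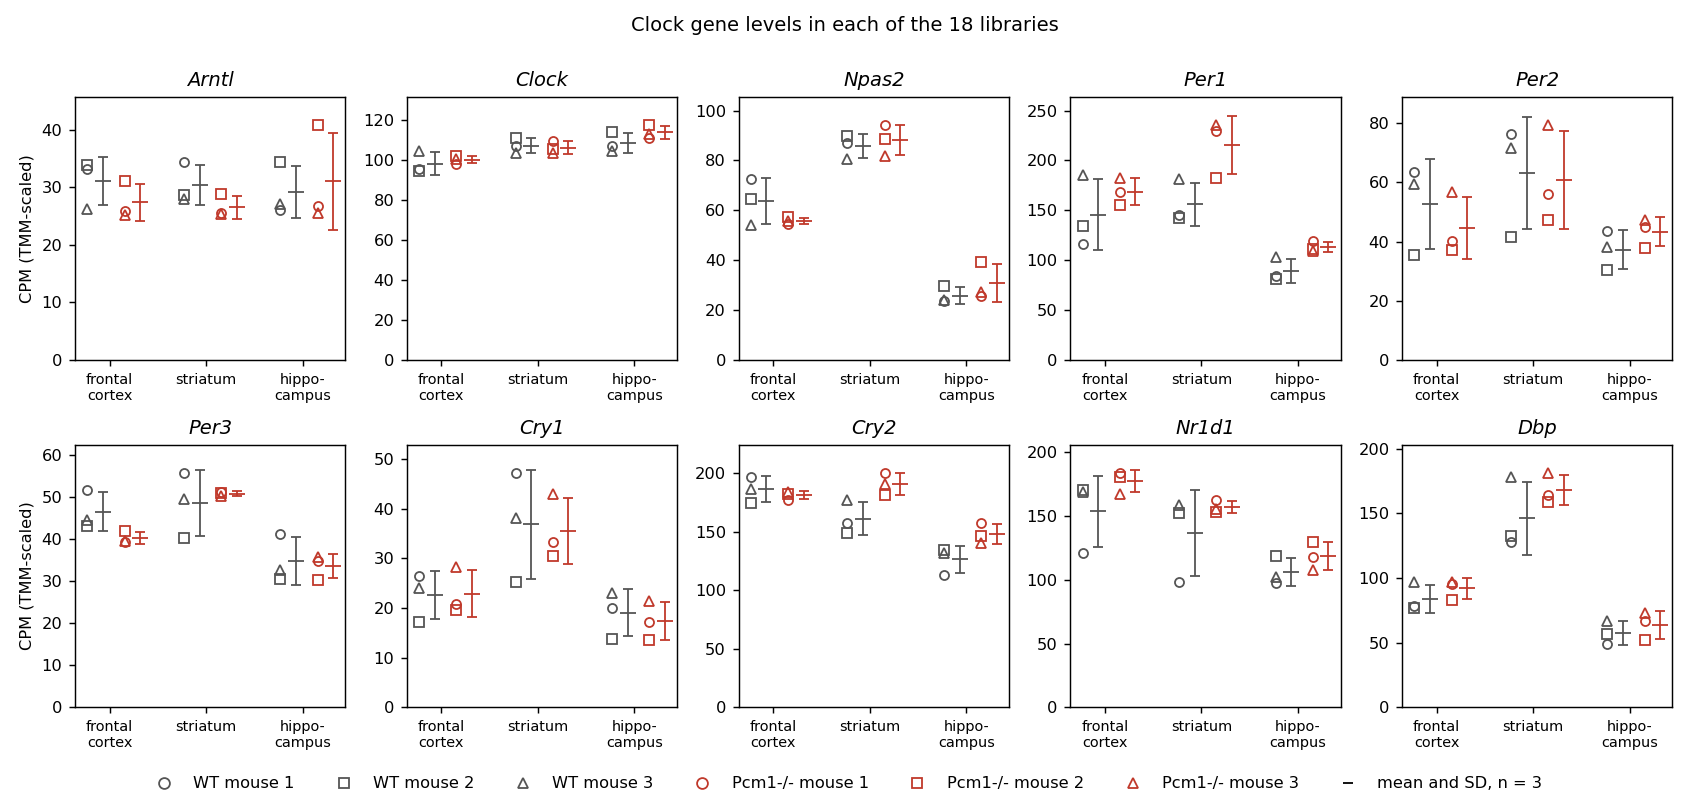
CPM of each clock gene in every library (symbols give the mouse, colors the genotype) with the mean and SD of 3 mice beside them. Squares (mouse 2) are lowest for Per2 and Cry1 in all 6 groups of region and genotype.

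Several clock genes differed between mice of the same genotype, in the same direction across brain regions. Whether a gene's level differed between mice of 1 genotype was tested with 4 animal terms in a model that kept the mean of each region and genotype, so that the regions of a mouse served as its repeats. Of the 10 members, 6 passed an adjusted p of 0.05, while 5.88% of all genes did: Cry1 (adjusted p = 5.4e-04), Per2 (0.0012), Dbp (0.0052), Per1 (0.020), Nr1d1 (0.041) and Per3 (0.042). Arntl (0.11), Npas2 (0.40), Cry2 (0.73) and Clock (0.96) did not. The unadjusted p of Arntl was 0.012, and its adjusted p ran from 0.055 to 0.63 over the alternatives.

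Per2 and Cry1 separated the mice most. Per2 was 63.4, 35.3 and 59.4 CPM in the frontal cortex of WT mice 1, 2 and 3, 76.4, 41.6 and 71.5 CPM in their striatum and 43.4, 30.5 and 38.0 CPM in their hippocampus. WT mouse 2 was thus the lowest in each region, with mouse 1 at 1.43 to 1.84 times its level. In the mutants Per2 was 40.1, 37.2 and 56.7 CPM in the frontal cortex of mice 1, 2 and 3, 56.1, 47.3 and 79.3 CPM in the striatum and 44.9, 37.9 and 47.2 CPM in the hippocampus. Here too mouse 2 was lowest and mouse 3 highest in every region, by 1.24 to 1.68 times. Cry1 gave 26.4, 17.2 and 24.1 CPM in the frontal cortex of WT mice 1 to 3, 47.2, 25.3 and 38.1 CPM in the striatum and 20.1, 13.9 and 23.1 CPM in the hippocampus. In mutant mice 1 to 3 it gave 20.7, 19.6 and 28.3 CPM, 33.2, 30.4 and 42.9 CPM, and 17.2, 13.6 and 21.4 CPM in the same order of regions. Mouse 2 was the lowest of its genotype in all 6 groups for both genes, and mouse 3 of the mutants was 1.41 to 1.57 times as high as mutant mouse 2 for Cry1.

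Other members ranked the mice differently. Dbp and Per1 were highest in WT mouse 3 in every region, with Dbp at 96.7, 178 and 67.1 CPM in its frontal cortex, striatum and hippocampus against 76.5 to 78.5, 128 to 132 and 49.1 to 56.5 CPM in the other WT mice. Per1 in WT mouse 3 was 1.23 to 1.59 times that in WT mouse 1. Nr1d1 was lowest in WT mouse 1, at 121 CPM in the frontal cortex and 97.9 CPM in the striatum where mice 2 and 3 had 170.3 and 169 CPM and 153 and 159 CPM. Per3 was highest in that same mouse, at 51.7, 55.8 and 41.2 CPM in the frontal cortex, striatum and hippocampus. WT mouse 1 therefore combined the highest Per2 and Per3 of its genotype with the lowest Nr1d1 in each region. Mutant mouse 2 had the highest Arntl of its genotype in each region (31.1, 28.9 and 40.8 CPM in frontal cortex, striatum and hippocampus, against 25.2 to 26.8 CPM in the other mutants), along with the lowest Per2, Cry1 and Dbp. Its hippocampal Npas2, 39.4 CPM, was also above the 25.8 and 27.3 CPM of the other mutants, and this is the library with few choroid plexus reads.

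**Figure D4:**
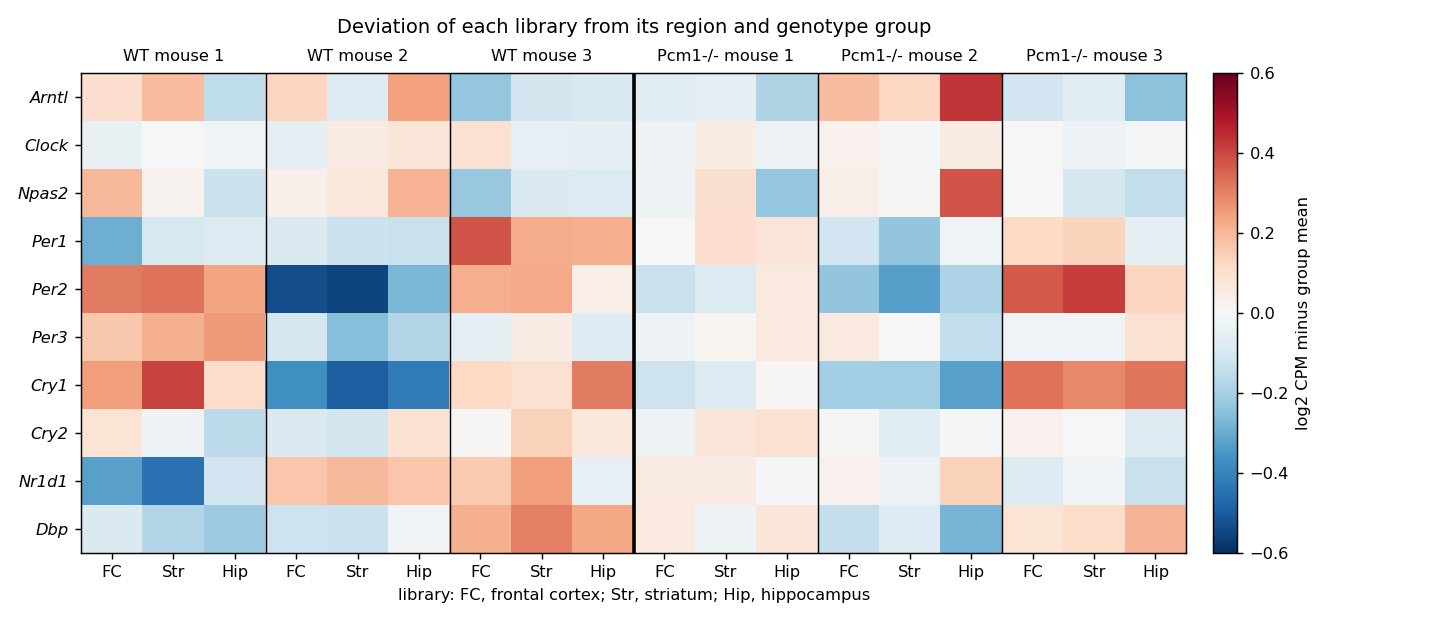
Log2 CPM of each clock gene minus the mean of its region and genotype group, for the 3 libraries of each mouse (FC, frontal cortex; Str, striatum; Hip, hippocampus). Per2 and Cry1 are low in all 3 regions of mouse 2 of both genotypes. They are above the group mean in all 3 regions of WT mice 1 and 3 and of Pcm1-/- mouse 3. Clock is near 0 throughout.

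The order of the 3 mice was the same in all 3 regions for Per2 and Per3 in WT, where 8.15% of all genes kept their order, and for Arntl, Per2, Cry1 and Dbp in Pcm1-/- mice, where 5.6% did. Deviations from the group means followed each other in some pairs of members and not in others. Over the 18 libraries, which come from 6 mice and are not independent, Pearson's r was 0.91 for Per2 with Cry1, 0.85 for Arntl with Npas2, 0.70 for Per1 with Dbp, −0.74 for Per3 with Nr1d1 and −0.68 for Arntl with Dbp, while it was near 0 for others, such as −0.02 for Arntl with Nr1d1, −0.03 for Clock with Cry2 and −0.07 for Per3 with Dbp. These are descriptions without a test, and the deviations of 1 library share its depth and its scaling.

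The number of calls depended on which libraries entered the fit. Without the frontal cortex 0 members passed with edgeR and 0.422% of all genes, without the striatum 2 (Per2 and Cry1) and 2.47%, and without the hippocampus 5 and 2.7%. Leaving out WT mouse 3 left 3 members, Per2, Cry1 and Nr1d1, beside 2.31%. Without WT mouse 1 (2.52% of all genes) or 2 (4.1%) or Pcm1-/- mouse 1 (4.37%) or 3 (3.61%) there were 4, with Per3 and Nr1d1 lost, and without Pcm1-/- mouse 2 (4.3%) all 6. Without mouse 2 of both genotypes 3 members passed, Per1, Per2 and Dbp, beside 5.1% of all genes, with Cry1 at an adjusted p of 0.058. With the sequencing lane in the model there were also 3, Per2, Cry1 and Nr1d1, beside 2.06%. Cell type markers moved with WT mouse 1 as well. Its summed markers of endothelium, 206, 178 and 179 CPM in the frontal cortex, striatum and hippocampus, were above those of the other WT mice in each region (144 and 156, 138 and 165, 124 and 133 CPM), as were those of astrocytes and microglia. Blood markers were highest in WT mouse 2 in each region, at 175, 227 and 216 CPM against 71.8 to 145 CPM in the other WT mice, and in Pcm1-/- mouse 2 in the frontal cortex and striatum (79.0 and 92.2 CPM), but not in the hippocampus (64.1 CPM, with 69.8 CPM in mouse 3). The part of these markers in the clock gene values was not tested.

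Genes beyond the core loop gave a background for the members. Of 33 further clock genes (other nuclear receptors of the loop, output factors, kinases and ubiquitin ligases, and clock-controlled or temperature-responsive genes), 0 passed between genotypes in any region with edgeR, and 6, 4 and 2 did so at an unadjusted p under 0.05 in the frontal cortex, striatum and hippocampus, beside 15.3%, 13.5% and 9.89% of all genes. DESeq2 called 0, 1 and 0, the striatal gene being Coq10b, beside 3.68%, 2.27% and 1.09% of all genes. In the counts summed over regions edgeR called 0 and DESeq2 2 of the 33, beside 1.39% and 6.43% of all genes. The median log2 fold changes of the 33 genes in the 3 regions were 0.07, 0.08 and 0.06. Between mice of 1 genotype 5 of the 33 passed, beside 5.88% of all genes. Among these, Cirbp, whose RNA-binding product responds to cold, had the smallest p (adjusted p = 1.0e-04), with 36.6, 28.7 and 27.8 CPM in the frontal cortex, striatum and hippocampus of WT mouse 1 against 43.9 to 59.3 CPM in the other WT mice, and without that mouse it was not called (adjusted p = 0.097). Ciart, whose product represses the CLOCK dimer, came next (adjusted p = 0.0049), at 11.7, 18.2 and 6.97 CPM in WT mouse 1 and 24.6, 29.6 and 11.7 CPM in WT mouse 3. Its call was lost without WT mouse 1 (adjusted p = 0.084), WT mouse 3 (0.14) or the frontal cortex (0.19). Ciart was thus lowest in WT mouse 1 and highest in WT mouse 3 of their genotype in each region, the order seen for Dbp in 2 of the 3 regions.

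Glucocorticoid-induced genes were read for the same reason, since Per1 responds to these hormones. Of 10 such genes 5 passed between mice of 1 genotype, beside 5.88% of all genes, and 0 passed between genotypes with edgeR or DESeq2 in any region, with 1 at an unadjusted p under 0.05 in each, lower in mutants in the frontal cortex and higher in both other regions, beside 15.3%, 13.5% and 9.89% of all genes. Their means were lower in mutants for 9, 8 and 7 of the 10 genes in frontal cortex, striatum and hippocampus, with median log2 fold changes of −0.17, −0.15 and −0.17. Of all 17545 genes tested, 9050, 8886 and 8789 were lower in mutants. In the counts summed over regions edgeR called 0 of the 10 and DESeq2 1, Fkbp5, beside 1.39% and 6.43% of all genes. Plin4, which coats lipid droplets, measured 8.89, 18.2 and 24.2 CPM in the frontal cortex, striatum and hippocampus of WT mouse 1, 1.48, 3.70 and 3.26 CPM in WT mouse 2 and 4.02, 10.4 and 12.1 CPM in WT mouse 3 (adjusted p = 9.6e-05). Sgk1, a kinase gene, was highest in WT mouse 3, at 107, 299 and 253 CPM against 57.8 to 127 CPM in the other WT mice (adjusted p = 5.4e-04, and 0.19 without WT mouse 3). The metallothionein genes Mt1 and Mt2 were highest in WT mouse 1 and lowest in WT mouse 2 in each region (adjusted p = 9.0e-04 and 1.5e-04). Mt1 was lost without the frontal cortex (adjusted p = 0.14), and Mt2 without WT mouse 2 (0.087) or mouse 2 of both genotypes (0.10). Among the 3 WT mice, Sgk1 was thus highest in the one with the highest Per1 and Dbp, and Plin4 in the one with the highest Per2 and Per3. In the mutants Plin4 spanned 2.21 to 6.61 CPM and Sgk1 60.8 to 148 CPM over all regions, with Sgk1 highest in mouse 1 of each region although Dbp was highest in mouse 3. Of the 11 immediate early genes 1 passed between mice of 1 genotype, beside 5.88% of all genes, and 10 had an unadjusted p under 0.05 in that test, beside 21.3% of all genes.

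Among the genes of these lists, 28, 22 and 25 of the 33 clock genes passed for striatum against frontal cortex, hippocampus against frontal cortex and striatum against hippocampus, beside 66%, 56.7% and 57.1% of all genes. Bhlhe40, which encodes the repressor DEC1, was lower in the striatum than in the frontal cortex (88.5 and 232 CPM; log2 −1.40 ± 0.07, adjusted p = 1.7e-10), while its relative Bhlhe41 was higher (131 and 78.2 CPM; log2 0.75 ± 0.05, adjusted p = 4.6e-09). Ciart was 25.5 CPM in the striatum and 11.4 CPM in the hippocampus (log2 1.17 ± 0.08, adjusted p = 7.6e-09), a difference of the same direction as that of Dbp. Hlf, a PAR bZIP relative of Dbp, was 202 CPM in the hippocampus and 415 CPM in the frontal cortex (log2 −1.04 ± 0.07, adjusted p = 1.6e-08), also lower in the hippocampus like Dbp. Coq10b was 32.1 CPM in the striatum and 17.8 CPM in the hippocampus (log2 0.84 ± 0.05), and Cipc, whose product inhibits CLOCK, was 147 and 89.4 CPM (0.71 ± 0.04; adjusted p = 7.4e-10 and 8.6e-10). The kinase gene Wee1 was 13.5 CPM in the striatum and 21.9 CPM in the frontal cortex (log2 −0.70 ± 0.05, adjusted p = 7.0e-09). Of the immediate early genes 9, 11 and 9 of 11 passed in the 3 comparisons, to be read against the same shares, and all 11 were lower in the hippocampus than in the frontal cortex, as Per1 and Per2 were. Of the glucocorticoid-induced genes 8, 8 and 6 of 10 passed, again beside those shares, and Fkbp5 was higher in the hippocampus (67.8 CPM) than in the frontal cortex (29.7 CPM; log2 1.19 ± 0.07, adjusted p = 2.6e-09).

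Genes whose deviations from the group means were most like those of 3 members were sought among 12869 genes whose log2 CPM averaged 1 or more, over the 18 libraries. For Dbp they were Hmgn2, Brwd1, Gorasp1, Agpat5 and Lmbrd1 (Pearson's r 0.94 to 0.91), and for Arntl they were Dnaja2, Cd34, Abcf2, Fsd1 and Gramd1a (0.94 to 0.92). For Per2 they were Pnpla7, Serinc3, Thbd, Vwf and Cry1 (0.93 to 0.91). The most alike fellow member thus ranked 5 of 12869 for Per2 (Cry1), against 63 for Arntl (Npas2) and 622 for Dbp (Per1).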

How the data were processed

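The 18 libraries (3 mice of each genotype, 3 regions) were made with a stranded mRNA kit. The authors trimmed the reads with Trim Galore and cutadapt, aligned them with STAR to GRCm38 (release 73), kept reads with a single location and deposited raw HTSeq counts per gene, with no versions given. The strand setting of HTSeq is not given in the sources used here. Gene names and positions came from GENCODE M21, which named 36723 of the 38561 rows. Of all deposited counts 86.8 to 89.2% fell on genes. Rows of reads without a feature (8.98 to 11.6%) or with several (1.58 to 1.79%) were left out of library sizes and tests.

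A gene was kept if any 1 library held 10 or more of its reads, and counts were scaled by TMM and tested with edgeR's quasi-likelihood test (4.0.16, R 4.3.3) with Benjamini-Hochberg adjustment over all genes tested and a threshold of 0.05. CPM values use the TMM-scaled library size, except those of counts summed over regions, which use the plain total of the mouse's counts on genes. The SE of a log2 fold change is its size over the square root of F. Genotypes were compared within each region and in counts summed over the regions of each mouse, regions within mice, and mice within genotype by an F test on 4 animal terms. Deviations are log2 CPM with a prior count of 2 minus the group mean. Alternatives were DESeq2 1.42.0, its size factors, other filters, a replicate block, sequencing lane, each mouse or region left out, and libraries that stood apart left out. The last of these, and the fits without mouse 2, were chosen after seeing the data. Scripts were tested on simulated data. Python 3.11.15, pandas 2.3.3, numpy 2.4.6 and matplotlib 3.10.9 made the tables and plots.

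The clock genes and the other lists were chosen with earlier results of these data known. All 10 clock genes are named, and from the other lists the 6 genes with the smallest p in each comparison of regions or mice could be named, with likeness given for Dbp, Per2 and Arntl. Genes outside that rule that are named (Egr4, Nr4a1 and the hypothalamic markers) were chosen after their values were seen.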

Additional observations from a re-analysis of the deposited data

How the results depend on the processing

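With 3 mice a genotype, the SE of the genotype differences reached 0.25 on the log2 scale for Per2, and the p-values of these differences measure the spread between these mice. The tests with animal terms (regions, interaction, mice of 1 genotype) instead measure against the variation left between the libraries of a mouse. Leaving out 1 mouse gave 0 to 2 members called between genotypes in the frontal cortex and 0 to 1 in the summed counts, and DESeq2 called 1 in the striatum. The replicate numbers of the labels, which in the WT striatum name the mice in another order than elsewhere, did not pair across genotypes, since correlations of same-numbered deviations ran from −0.27 to 0.51. By the mouse numbers used here they ran from 0.043 to 0.51, with mouse 1 under 0.1 in each region. With the replicate block, by the labels' numbers, 0 members passed in each genotype comparison, while over all genes 665, 3, 9 and 28 were called in the frontal cortex, striatum, hippocampus and sums in place of 306, 5, 3 and 243. For regions, the replicate block in place of the animal gave 6, 7 and 8 members beside 62.6%, 52.4% and 53.1% of all genes, and striatum against frontal cortex gave 5 with no animal term (62.7%) and 4 with WT mice only (48.1%). Members that differed between mice of 1 genotype numbered 3 with the lane in the model, 0 without the frontal cortex, 2 without the striatum, 3 without mouse 2 and 3 to 6 with 1 mouse left out. The cause of these changes was not tested, beyond the fewer libraries in the fits that leave some out. Among the single genes 1506 values kept direction and call, 64 lost the call, 4 gained it and 42 reversed, and only values not called in the full fit reversed. Genotype differences reversed with lane for Clock in the frontal cortex (−0.0123), and without mouse 2 for Clock (−0.0080) and Cry1 (−0.0414) there, Clock (0.0199) and Per3 (−0.0531) in the striatum and Arntl in the hippocampus (−0.0418). Between regions, Arntl reversed without the libraries of unusual choroid plexus counts (0.0137 for striatum and −0.0523 for hippocampus over frontal cortex, 0.0660 for striatum over hippocampus) and with WT mice only (−0.0917 for hippocampus over frontal cortex, 0.0683 for striatum over hippocampus), and Cry2 with Pcm1-/- mice only (0.0766, striatum over frontal cortex). With 1 mouse left out, log2 differences that changed sign ran from −0.167 to 0.137 for Cry1 in the frontal cortex. In the striatum they ran from −0.0340 to 0.0130 for Clock, −0.0073 to 0.0887 for Npas2, −0.289 to 0.109 for Per2, −0.0521 to 0.180 for Per3 and −0.265 to 0.167 for Cry1. In the hippocampus they ran from −0.167 to 0.194 for Arntl, −0.156 to 0.0729 for Per3 and −0.335 to 0.0129 for Cry1, and in the sums from −0.113 to 0.0199 for Npas2, −0.266 to 0.0939 for Per2, −0.156 to 0.0477 for Per3 and −0.263 to 0.0819 for Cry1. For Arntl between regions they ran from −0.0568 to 0.0087 (striatum over frontal cortex), −0.0393 to 0.101 (hippocampus over frontal cortex) and −0.151 to 0.0210 (striatum over hippocampus).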
